A study of Mus musculus with 6 samples.

Results

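Heterogeneous nuclear ribonucleoproteins (hnRNPs) are abundant proteins that bind RNA, and 10 of their genes were followed here by the ribosomes lying on their mRNAs: Hnrnpa1, Hnrnpa2b1, Hnrnpab, Hnrnpc, Hnrnpd, Hnrnpf, Hnrnpk, Hnrnpl, Hnrnpm and Hnrnpu. They were chosen by gene identifier from a table of 22322 mouse genes, and all 10 passed the filter on low counts that left 6775 genes for testing. In ribosome profiling the pieces of mRNA that ribosomes shield from digestion are sequenced and counted as footprints. There were 3 libraries from activated and 3 from resting CD4+ T cells. These helper lymphocytes had been purified from lymph nodes and spleen of C57BL/6J females aged 6 weeks and carry no transgene named in the labels. Activated cells had been stimulated with beads coated with antibodies to CD3 and CD28, for a time not given in the sources used here. Resting cells are labelled as not activated. All libraries are labelled untreated at 0 h, before any drug that blocks transcription or translation. The labels number biological replicates 2, 3 and 4 in both groups without saying whether they came from separate animals, and the p-values cover only the spread among the libraries, which may be technical.

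hnRNPs coat pre-mRNA as it is transcribed and influence which exons are spliced in, how mRNA is packaged and exported, and how long it lasts. Most carry one or more RNA-recognition motifs or KH domains, and each prefers a short sequence, such as uridine tracts, CA repeats, G runs or cytosine-rich stretches. In T cells they are known for alternative splicing that changes on activation, with hnRNP L acting on the variable exons of Ptprc, the gene of the phosphatase CD45. Footprints in coding sequence (CDS) report how many ribosomes were on the mRNA of a gene, which depends on the amount of mRNA and on how densely it was translated. RNA levels were not analysed here, so the parts of mRNA amount and ribosome density in any change cannot be told apart. In bulk samples a change in the mix of cells and a change in RNA per cell cannot be told apart either.

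The promoter sequences of 4 genes are shown because these genes lie at both ends of the order of log2 changes described below. Hnrnpa1, Hnrnpu and Hnrnpab had footprint rises of at least 2-fold. Hnrnpl had the lowest change of the 10, which did not pass the test. Each line is the 100 bases before a RefSeq transcription start of GRCm38.p6, 5′ to 3′ on the strand of the gene. The starts used for Hnrnpa1, Hnrnpu and Hnrnpl, and the bases shown before them, lie inside the listed genes. That of Hnrnpab is at the edge of its listed gene. Hnrnpa1 is at chr15:103240297-103240396 on the plus strand, Hnrnpu at chr1:178337816-178337915 on the minus strand, Hnrnpab at chr11:51606882-51606981 on the minus strand and Hnrnpl at chr7:28810790-28810889 on the plus strand. Capitals mark matches on either strand to the motifs that were searched.
Hnrnpa1: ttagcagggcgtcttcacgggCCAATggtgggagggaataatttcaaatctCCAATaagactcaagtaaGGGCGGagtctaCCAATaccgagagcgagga
Hnrnpu: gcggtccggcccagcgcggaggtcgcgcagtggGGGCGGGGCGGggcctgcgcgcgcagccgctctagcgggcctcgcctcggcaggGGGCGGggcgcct
Hnrnpab: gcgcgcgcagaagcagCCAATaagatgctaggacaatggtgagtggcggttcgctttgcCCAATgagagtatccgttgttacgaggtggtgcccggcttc
Hnrnpl: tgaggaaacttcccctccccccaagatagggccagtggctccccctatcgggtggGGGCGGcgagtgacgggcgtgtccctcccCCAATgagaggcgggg
The motifs were the E-box CACGTG, the CCAAT box CCAAT, the GC box GGGCGG, the TATA box TATAAA and the ETS motif CCGGAAG. RefSeq listed 14 windows of 300 bases for the 10 genes, 250 before and 50 after a start, with 4 windows for Hnrnpf and 2 for Hnrnpa2b1. A CCAAT box lay in 9 of the 14 windows, from 7 genes, and in 37.4% of all 32851 windows of the same length in the table. The 2 windows of Hnrnpa2b1 overlap and hold the same CCAAT match, which is counted in both. Hnrnpa1 held 4 matches to the CCAAT box, Hnrnpc and Hnrnpl held 4 each as well, and Hnrnpu, Hnrnpd and Hnrnpm held none. A GC box lay in 8 windows from 6 genes, against 35.7% of all windows. Other motifs were in fewer windows: the E-box in 3 (Hnrnpd, Hnrnpf and Hnrnpm; 7.15% of all windows), the TATA box in 2 (Hnrnpab and Hnrnpm; 13.6%) and the ETS motif in 4 (Hnrnpd and Hnrnpf; 8.86%). The letters TATAAA began at base 6 from the start in Hnrnpab and 216 bases before the start in Hnrnpm. The E-box of Hnrnpm began at base 14 from the start. GC box and ETS matches overlapped in 1 Hnrnpf window, and GC boxes overlapped each other in the Hnrnpu window. Hnrnpa1 and Hnrnpl, with the highest and the lowest change, both held the CCAAT box, and Hnrnpu, with the next highest, held none. Any link between a motif and the change in footprints was not tested. A match describes letters and not a bound factor.

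CDS footprints rose for 6 of the 10 genes in activated cells, fell for 0, and did not pass the test for 4 (edgeR's quasi-likelihood test, Benjamini-Hochberg adjusted p under 0.05 over all genes tested). Hnrnpa1, Hnrnpu and Hnrnpab rose by at least 2-fold, and Hnrnpc, Hnrnpa2b1 and Hnrnpm rose by less. Hnrnpd, Hnrnpf, Hnrnpk and Hnrnpl did not pass. The number that fell was also 0 at an unadjusted p under 0.05 and with DESeq2 and limma voom. Levels are given in CPM, counts per 1e+06 counts of a TMM-scaled library. Among all genes tested, 45.7% passed in either direction, 24.1% as higher and 21.6% as lower, and 14.7% were at least 2-fold higher. The median log2 change was 0.44 over the 10 genes, which were chosen with earlier results of these data known, and -0.04 over all genes tested. The groups did not overlap for the 6 genes that rose and overlapped for the other 4, against 54.8% of all genes tested whose groups did not overlap. The count rests on the TMM scaling between libraries, a trimmed mean that sets the bulk of genes to no change. Upper quartile factors gave 4 higher genes and 1 lower (1399 and 1897 over all genes). Library totals alone gave 3 higher genes and 2 lower (1102 and 2572 over all genes). Hnrnpa1, Hnrnpab and Hnrnpu were called higher in all 16 alternatives run.

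**Figure D1:**
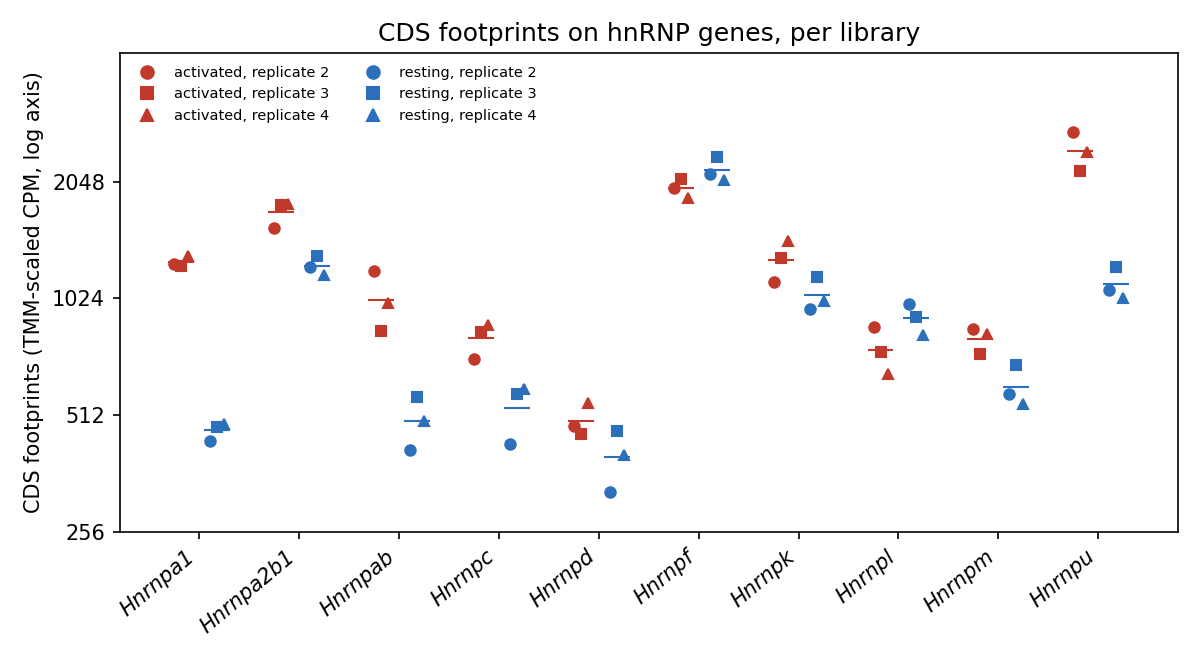
TMM-scaled CDS footprints in CPM on a log axis, for each of the 10 genes, 1 point per library with the group mean as a bar, activated left of resting. Activated and resting points of Hnrnpa1, Hnrnpa2b1, Hnrnpab, Hnrnpc, Hnrnpm and Hnrnpu do not overlap; levels of different genes are not corrected for length and are not comparable.

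Hnrnpa1 and Hnrnpa2b1 encode the A and B group proteins, close relatives with a pair of RNA-recognition motifs and a glycine-rich tail that act largely as splicing repressors and shuttle between nucleus and cytoplasm. Hnrnpa1 (ENSMUSG00000046434.14, chr15:103239943-103246698) had 1259, 1238 and 1316 CPM in activated replicates 2, 3 and 4, against 439, 478 and 486 CPM in resting replicates 2, 3 and 4. Every activated library lay far above every resting library, and the spread within a group was small beside the gap. Its means were 1271 ± 40.1 CPM in activated and 468 ± 24.9 CPM in resting cells (SD, n = 3), giving a log2 change of 1.44 with an SE of 0.14 (edgeR adjusted p = 4.65e-07), higher than in 90.9% of all genes tested. RefSeq lists a pseudogene, Hnrnpa1l2-ps, and a gene named Hnrnpa1l2-ps2, and records that align to more than one place were not counted, so its level is uncertain.

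Hnrnpa2b1 (ENSMUSG00000004980.15, chr6:51460434-51470048) had 1554, 1783 and 1793 CPM in activated replicates 2, 3 and 4, against 1236, 1319 and 1174 CPM in resting replicates. The lowest activated library was above the highest resting one, with a smaller gap than for Hnrnpa1. The means were 1709.8 ± 135 CPM in activated and 1243 ± 72.4 CPM in resting cells (SD, n = 3), giving a log2 change of 0.46 with an SE of 0.14 (edgeR adjusted p = 0.0134). This call was lost with upper quartile factors (0.32, edgeR adjusted p = 0.0717), with library totals alone (0.12, edgeR adjusted p = 0.478) and without resting replicate 4 (0.42, edgeR adjusted p = 0.0608).

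The ratio of these related genes within a library does not depend on scaling between libraries. Hnrnpa1 had 0.810, 0.695 and 0.734 CDS counts per count of Hnrnpa2b1 in activated replicates 2, 3 and 4, against 0.356, 0.363 and 0.414 in resting replicates. All activated ratios were above all resting ratios. The difference in the mean log2 ratio was 0.98 (activated -0.43 ± 0.11, resting -1.41 ± 0.12; SD, n = 3), with an exact two-sided permutation p of 0.1, the smallest that 3 against 3 libraries can give, and 0.1 after adjustment over the 2 pairs compared. Both genes rose under the TMM scaling, and Hnrnpa1 rose by more.

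Hnrnpab and Hnrnpd encode another related pair. Hnrnpd, also called Auf1, binds AU-rich elements in mRNA 3′ ends and is known for promoting their decay, and Hnrnpab binds RNA and single-stranded DNA through similar motifs. Hnrnpab (ENSMUSG00000020358.16, chr11:51600100-51606881) had 1202, 843 and 994 CPM in activated replicates 2, 3 and 4, against 416, 571 and 495 CPM in resting replicates. The activated libraries were spread widely, with replicate 2 the highest, yet all were above the resting ones. Its means were 1013 ± 180.0 CPM in activated and 494 ± 77.3 CPM in resting cells (SD, n = 3), giving a log2 change of 1.03 with an SE of 0.17 (edgeR adjusted p = 0.000105).

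Hnrnpd (ENSMUSG00000000568.14, chr5:99955935-99979130) had 479, 458 and 549 CPM in activated replicates 2, 3 and 4, against 324, 467 and 404 CPM in resting replicates. Resting replicate 3 lay above activated replicate 3, so the groups overlapped. The means were 495 ± 47.9 CPM in activated and 398 ± 71.8 CPM in resting cells (SD, n = 3), and the log2 change of 0.31 (SE 0.16) did not pass (edgeR adjusted p = 0.121). In exon counts, which add the untranslated regions, it did pass (0.49, edgeR adjusted p = 0.0130), and with library totals alone its sign turned (-0.026). Hnrnpab had 2.50, 1.84 and 1.81 CDS counts per count of Hnrnpd in activated replicates 2, 3 and 4, against 1.28, 1.22 and 1.22 in resting replicates. No activated ratio came near a resting one. The difference in the mean log2 ratio was 0.71 (activated 1.02 ± 0.26, resting 0.31 ± 0.04; SD, n = 3; exact two-sided permutation p = 0.1, adjusted 0.1, the smallest possible).

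**Figure D2:**
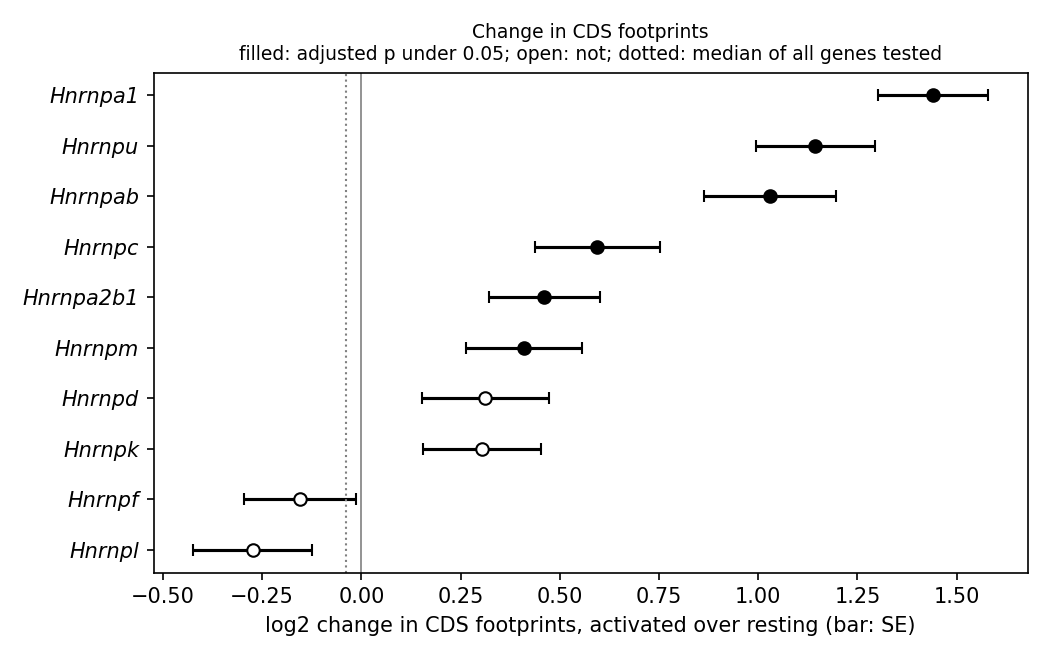
Log2 change in CDS footprints, activated over resting, for the 10 genes in order of change, with the SE as a bar; filled points passed at an adjusted p under 0.05 and the dotted line is the median of all genes tested (-0.04). Values run from 1.44 for Hnrnpa1 at the top to -0.27 for Hnrnpl at the bottom.

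Hnrnpu and Hnrnpc encode proteins of the nucleus. hnRNP U, or scaffold attachment factor A, binds RNA and DNA and holds RNA to chromatin, and hnRNP C forms tetramers that bind uridine tracts in nascent transcripts. Hnrnpu (ENSMUSG00000039630.9, chr1:178321108-178338891) had 2749, 2189 and 2449 CPM in activated replicates 2, 3 and 4, against 1077, 1236 and 1028 CPM in resting replicates. Activated libraries all lay well above the resting ones. The means were 2462 ± 281 CPM in activated and 1114 ± 109 CPM in resting cells (SD, n = 3), giving a log2 change of 1.14 with an SE of 0.15 (edgeR adjusted p = 1.28e-05). Hnrnpc (ENSMUSG00000060373.13, chr14:52073377-52104039) had 716, 838 and 873 CPM in activated replicates 2, 3 and 4, against 431, 579 and 596 CPM in resting replicates. Replicate 2 was the lowest of both groups, and the groups still did not overlap. Its means were 809 ± 82.6 CPM in activated and 535 ± 90.9 CPM in resting cells (SD, n = 3), giving a log2 change of 0.59 with an SE of 0.16 (edgeR adjusted p = 0.00564), and with library totals alone it was 0.26 and did not pass (edgeR adjusted p = 0.182).

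Hnrnpm encodes a protein that binds GU-rich RNA and takes part in splice site choice. Hnrnpm (ENSMUSG00000059208.13, chr17:33646233-33685458) had 854, 735 and 830.3 CPM in activated replicates 2, 3 and 4, against 580.3, 691 and 549 CPM in resting replicates. Activated replicate 3 lay only a little above resting replicate 3. The means were 807 ± 62.9 CPM in activated and 607 ± 74.7 CPM in resting cells (SD, n = 3), giving a log2 change of 0.41 with an SE of 0.15 (edgeR adjusted p = 0.0307). It was the smallest change that passed among the 10 genes, and the call was lost without resting replicate 2 (0.38, edgeR adjusted p = 0.101), without resting replicate 4 (0.34, edgeR adjusted p = 0.138), with upper quartile factors (0.27, edgeR adjusted p = 0.141) and with library totals alone (0.07, edgeR adjusted p = 0.701).

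Hnrnpk, Hnrnpf and Hnrnpl encode proteins with distinct preferences: hnRNP K binds cytosine-rich stretches through KH domains, hnRNP F binds G runs, and hnRNP L binds CA repeats. None of these genes passed under the TMM scaling. Hnrnpk (ENSMUSG00000021546.16, chr13:58391132-58403343) had 1129, 1301 and 1438 CPM in activated replicates 2, 3 and 4, against 963, 1163 and 1011 CPM in resting replicates. Resting replicate 3 reached above activated replicate 2, and the log2 change was 0.30 (SE 0.15, edgeR adjusted p = 0.104). Without activated replicate 2 the change was 0.41 and passed (edgeR adjusted p = 0.0305), and with library totals alone it was -0.034.

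Hnrnpf (ENSMUSG00000042079.12, chr6:117900340-117925622) had 1970.1, 2080.5 and 1856 CPM in activated replicates 2, 3 and 4, against 2143, 2368 and 2067 CPM in resting replicates. Activated replicate 3 lay just above resting replicate 4, and the log2 change was -0.16 (SE 0.14, edgeR adjusted p = 0.386). Hnrnpl (ENSMUSG00000015165.15, chr7:28808546-28822268) had 863, 744 and 656 CPM in activated replicates 2, 3 and 4, against 990.4, 916 and 824 CPM in resting replicates. At each replicate number the activated library was the lower, but across numbers the groups overlapped, and the log2 change was -0.27 (SE 0.15, edgeR adjusted p = 0.144). With library totals alone both were called lower, Hnrnpf at -0.49 (edgeR adjusted p = 0.00788) and Hnrnpl at -0.61 (edgeR adjusted p = 0.00260), and with upper quartile factors Hnrnpl was called lower at -0.41 (edgeR adjusted p = 0.0308). Hnrnpf and Hnrnpl had no call as higher under any alternative run.

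**Figure D3:**
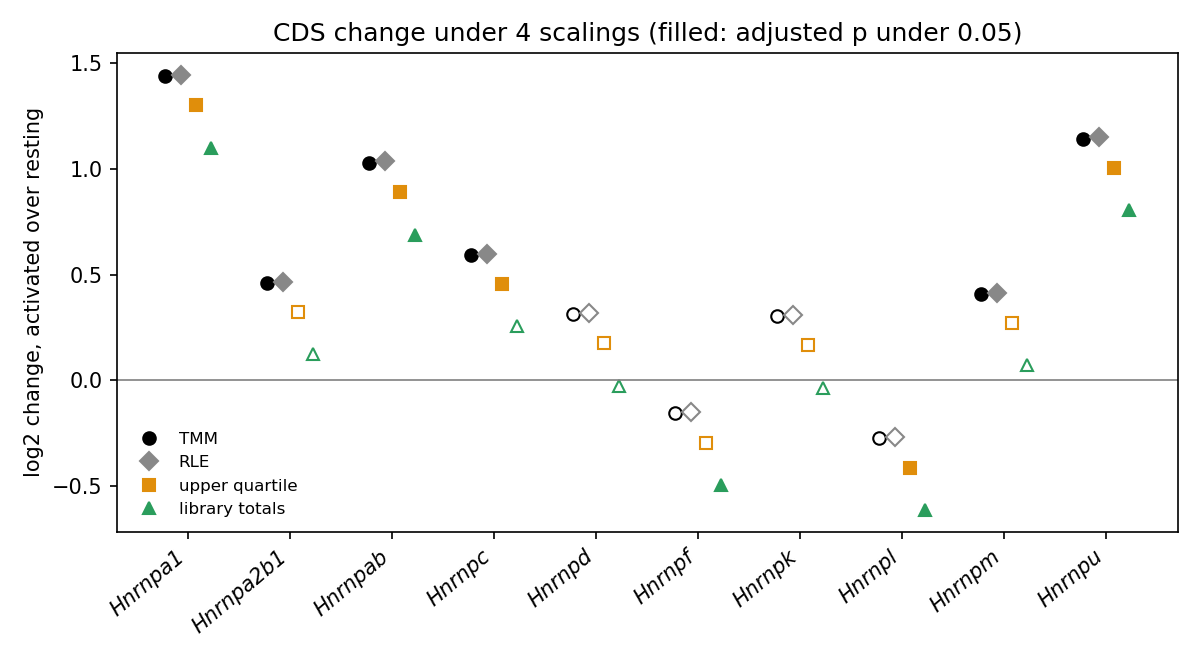
Log2 change in CDS footprints, activated over resting, of the 10 genes with TMM, RLE and upper quartile factors and with library totals alone; filled points passed at an adjusted p under 0.05. Hnrnpa1, Hnrnpab and Hnrnpu are filled and above 0 under each scaling, while Hnrnpd and Hnrnpk cross 0 with library totals.

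Hnrnpa1 had the highest and Hnrnpl the lowest log2 change under each of these 4 scalings. The median log2 change of the 10 genes was 0.10 with library totals alone, where that of all genes tested was -0.38, and 0.30 with upper quartile factors, where that of all genes was -0.18. The gap between the medians was 0.47 with each of the 4 scalings. A change of scaling moves the log2 changes of all genes by nearly the same amount. The order of the genes and this gap could therefore hardly differ between scalings, and their agreement is no test of either. Neighbours in the order did not differ beyond their SE from Hnrnpc through Hnrnpk (0.59 to 0.30). Hnrnpu and Hnrnpab likewise lay within their errors of each other, and so did Hnrnpf and Hnrnpl.

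Counts on the 10 genes were divided differently among them in activated cells. Together they held 1.099%, 1.07% and 1.11% of all CDS counts in activated replicates 2, 3 and 4, against 0.935%, 1.07% and 0.945% in resting replicates (95% Wilson intervals of 1.07% to 1.13% for activated replicate 2 and 0.907% to 0.964% for resting replicate 2). Activated replicate 3 and resting replicate 3 had the same share within counting error. The summed share averaged 1.09 ± 0.02% in activated and 0.982 ± 0.073% in resting cells (SD, n = 3). Of these counts, Hnrnpu took 21.5%, 17.9% and 19.2% in activated replicates 2, 3 and 4, against 12.5%, 12.6% and 11.9% in resting replicates. Hnrnpa1 took 9.85%, 10.1% and 10.3% in activated replicates, against 5.11%, 4.89% and 5.62% in resting replicates. Both genes held a larger part of the hnRNP footprints in each activated library than in any resting library. Hnrnpf took 15.4%, 17.0% and 14.6% in activated replicates, against 24.9%, 24.2% and 23.9% in resting replicates. Hnrnpl took 6.76%, 6.09% and 5.14% in activated replicates, against 11.5%, 9.36% and 9.54% in resting replicates. Shares of a fixed total move against each other, so these values describe a changed mix and not separate changes of each gene. The share of Hnrnpa2b1 overlapped between the groups, at 12.2% to 14.6% in activated and 13.5% to 14.4% in resting replicates.

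**Figure D4:**
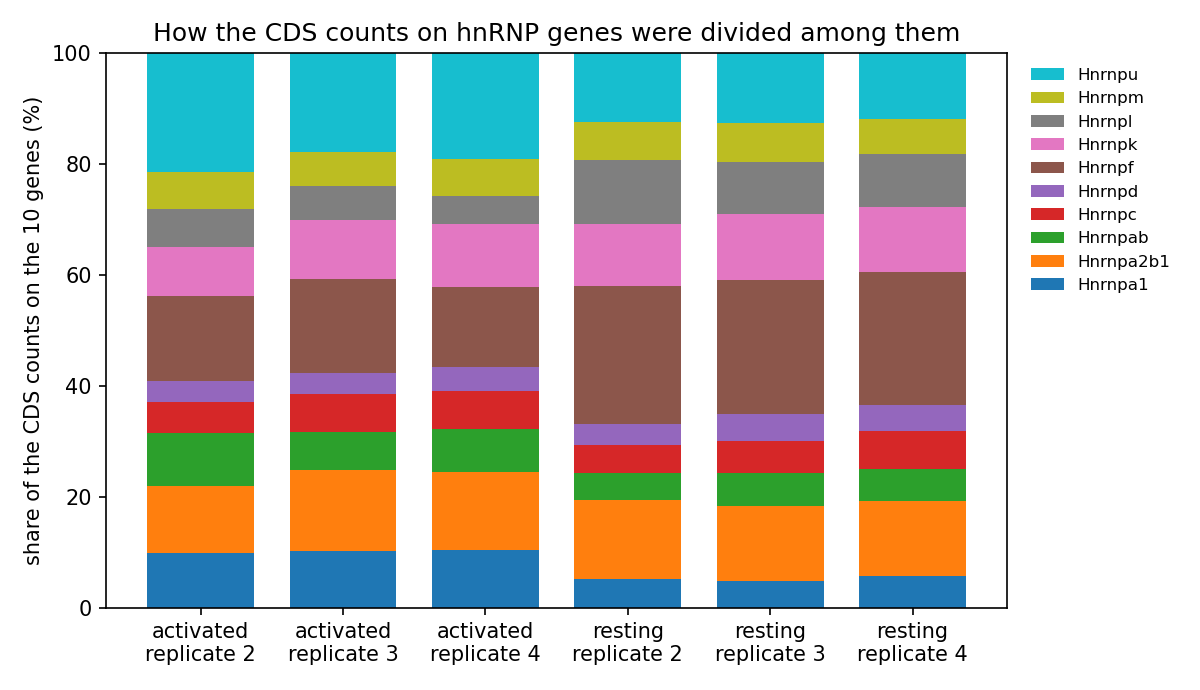
Share of the CDS counts on the 10 hnRNP genes taken by each gene, in percent, as stacked bars for the 3 activated libraries and then the 3 resting libraries. Hnrnpu and Hnrnpa1 fill more of each activated bar, and Hnrnpf and Hnrnpl fill more of each resting bar.

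Footprints in the 5′ UTR, the leader ahead of the coding sequence, can come from upstream initiation or from ribosomes near the start codon, and they were set against the CDS counts of the same gene. Over the activated and the resting libraries, leader counts summed to between 216 and 1417 and between 32 and 1602 for the 8 genes other than Hnrnpl and Hnrnpm. Hnrnpa1 had 6.86, 7.61 and 8.33 leader counts per 100 CDS counts in activated replicates 2, 3 and 4, against 3.83, 3.39 and 4.43 in resting replicates. Its resting values rest on 8, 10 and 14 leader counts, against 38, 75 and 103 in activated replicates. Hnrnpd had 57.3, 44.2 and 27.5 per 100 CDS counts in activated replicates, against 24.0, 21.5 and 21.7 in resting replicates. The activated values of Hnrnpd differed widely, with the highest in replicate 2, the library in which leader counts per 100 CDS counts were also highest over all genes (20.02, against 14.0 to 15.5 in the other 5 libraries). Hnrnpf ran the other way, with 34.1, 30.3 and 35.6 per 100 CDS counts in activated replicates, against 40.6, 41.8 and 42.9 in resting replicates.

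For 6 of the 8 genes with enough leader counts to test, the ratio did not overlap between the groups, against 17.1% of the 5238 genes tested. It was higher in activated cells for Hnrnpa1, Hnrnpa2b1, Hnrnpab, Hnrnpd and Hnrnpu, and lower for Hnrnpf. Over all genes tested, the ratio was higher without overlap for 725 and lower without overlap for 170. Genes entered that count with as few as 10 leader counts, fewer than any of the 8 genes had, and few counts make overlap more likely. The ratio was also not scaled between libraries. Setting the 8 genes against all genes in this way therefore cannot show a trait of the 8. The ratio averaged 45.3 ± 8.38 per 100 CDS counts in activated and 29.6 ± 5.93 in resting cells for Hnrnpab, and 31.5 ± 2.06 in activated and 23.5 ± 4.05 in resting cells for Hnrnpa2b1 (SD, n = 3). For Hnrnpu it averaged 12.6 ± 1.87 in activated and 8.46 ± 0.43 in resting cells (SD, n = 3). Hnrnpc and Hnrnpk overlapped, at 26.2 ± 4.80 and 18.8 ± 4.69 in activated and 24.9 ± 3.09 and 15.2 ± 0.50 in resting cells. In the edgeR model of both regions, which scales each region on its own, 0 of the 8 genes passed at an adjusted p under 0.05, and 2 did at an unadjusted p under 0.05. Over all genes 0.0764% passed, which is 4 genes, and 502 did at an unadjusted p under 0.05. The log2 changes of the ratio were -0.63 for Hnrnpf (SE 0.24, edgeR adjusted p = 0.387), 0.58 for Hnrnpd (SE 0.27, edgeR adjusted p = 0.485) and 0.69 for Hnrnpa1 (SE 0.35, edgeR adjusted p = 0.562). With 1 scaling for both regions they were -0.33 for Hnrnpf, 0.87 for Hnrnpd and 0.96 for Hnrnpa1 (edgeR adjusted p = 0.598, 0.300 and 0.304), and 0 of the 8 genes passed. Hnrnpa2b1, Hnrnpab and Hnrnpu had 0.13, 0.29 and 0.26 with separate scaling and 0.43, 0.59 and 0.55 with 1 scaling. Hnrnpc and Hnrnpk changed sign, from -0.19 and -0.035 with separate scaling to 0.090 and 0.26 with 1 scaling.

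**Figure D5:**
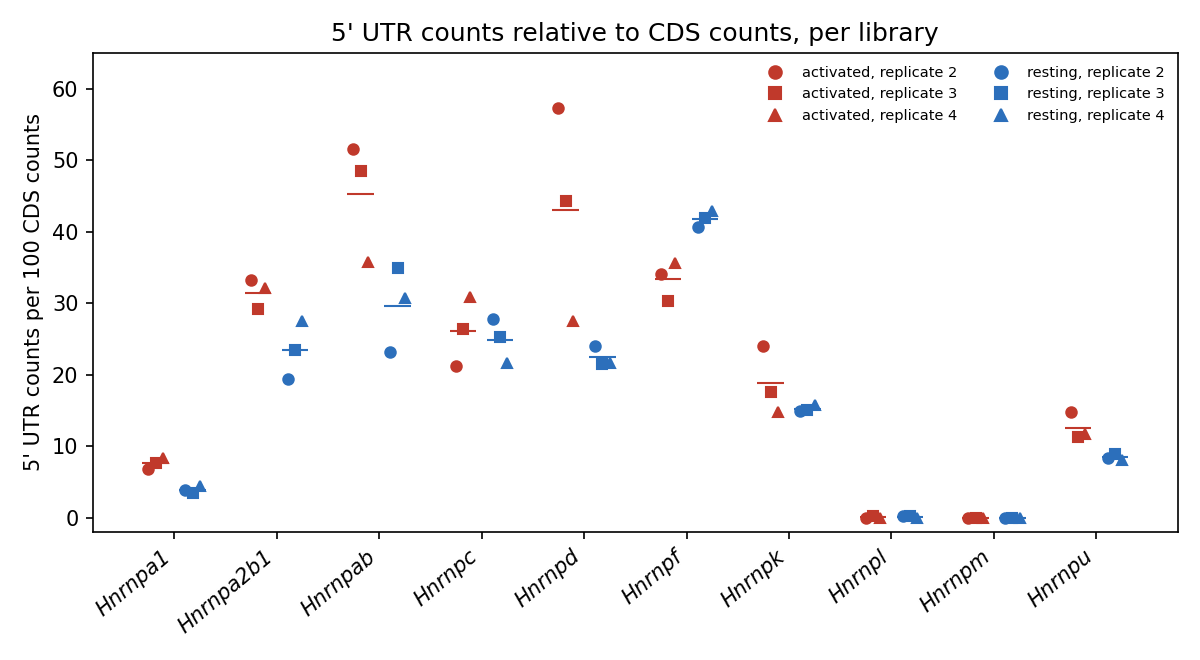
5′ UTR counts per 100 CDS counts of the same gene and library, 1 point per library with the group mean as a bar, activated left of resting. Hnrnpf is lower in each activated library (30.3 to 35.6, against 40.6 to 42.9 in resting), Hnrnpd ranges from 27.5 to 57.3 in activated libraries, and Hnrnpl and Hnrnpm lie at or near 0.

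Hnrnpl and Hnrnpm had almost no leader footprints. Hnrnpl had 1 leader count beside 1588 CDS counts over the activated libraries and 2 beside 1572 over the resting libraries, and Hnrnpm had 0 in each of the 6 libraries beside 1741 and 1059 CDS counts. Both were below the 10 counts that the test required. The first 30 bases from a RefSeq start of Hnrnpl (chr7:28810890-28810919, plus strand) are shown because its leader counts were so few, with the first ATG in capitals. This start lies inside the listed gene, which begins at chr7:28808546.
Hnrnpl: ggaggcgggttctgcgccgccATGtcgcgg
That ATG begins at base 22 from this start, which would leave a short leader if transcription and translation start at these places. The first 30 bases from the listed start of Hnrnpm, which had 0 leader counts, held no ATG. Why these 2 genes had so few leader counts was not tested. No annotation of start codons was used here, so which ATG the authors' regions were drawn from is not known.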

How the data were processed

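The authors deposited 1 table of raw counts per gene with 36 columns, 6 per library, for the CDS in 2 counting modes, 5′ UTR, 3′ UTR, exons and introns, per the file headers. Per the submitters' processing notes, TopHat2 2.0.13, Bowtie 1.1.1.0 and HTSeq were used with build mm10. The sources used here give no trimming, annotation release or strand setting. Columns were matched to labels by library name; they number replicates differently. CDS counts summed to 511483, 910575 and 1074656 in activated and 437200, 565820 and 594508 in resting replicates 2, 3 and 4. Rows that name no gene, mostly records that align more than once, were left out; they held 79.8% to 91.9% of records per library.

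The CDS test was edgeR 4.0.16 under R 4.3.3 (filterByExpr, TMM, estimateDisp, glmQLFit, glmQLFTest, two-sided) over the whole table. Every adjusted p without another tool named comes from it. SE is the log2 change over the root of F. The leader test used 1 edgeR model with a term per library, for region and for region in activated cells, on genes with at least 10 counts in each region. Paired ratios added 0.5 to each count and were compared over the 20 assignments of libraries. Scripts were tested on simulated data in which few genes changed, in equal numbers up and down. That setting cannot test how the calls depend on scaling. Wilson intervals cover counting error only. Members and lists were chosen with earlier results of these data known. All 10 members were to be named; gene symbols are those given with the 10 identifiers. The reference table (GRCm38.p6) pairs 0 Ensembl IDs with symbols, so a list of other hnRNP genes, cell type markers and coding lengths could not be matched and are not used here. Alternatives were RLE and upper quartile factors, library totals, DESeq2 1.42.0, limma voom 3.58.1, no filter, 2 other count columns, a replicate block, a threshold of 0.01 and leaving out each library.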

Additional observations from a re-analysis of the deposited data

How the results depend on the processing

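Of the 10 genes, 6 were called in the CDS, and between 4 and 7 over the 16 alternatives (4 to 7 without each library). RLE factors, DESeq2, limma voom, no filter and intersection-nonempty counts called the same 6. With library totals alone 5 were called (3 higher, 2 lower), and Hnrnpd and Hnrnpk changed sign without a call, at -0.026 (edgeR adjusted p = 0.899) and -0.034 (edgeR adjusted p = 0.858). Upper quartile factors called 5 (4 higher, 1 lower), an adjusted p under 0.01 called 4 (Hnrnpa1, Hnrnpab, Hnrnpc and Hnrnpu), and the cause of calls that differed was not tested. Deviations from the group mean correlated across genes at 0.12, 0.07 and 0.22 between same-numbered libraries. Between libraries with different numbers the correlations ran from -0.15 to 0.004. Deviations within a group of 3 libraries cancel out, so positive values at the same number push the other values down. The contrast is therefore not independent evidence of likeness. CDS totals also rose with replicate number in both groups, so depth and pairing cannot be told apart here. Whether the numbers mark pairs is not known, and the main test did not pair them. With a replicate block 7 genes were called, Hnrnpk added at 0.30 (edgeR adjusted p = 0.0461), and 0 in leaders. Over all genes the block gave 1789 higher and 1666 lower, against 1633 and 1464 without it. Leaders gave 0 calls among the members under all 9 alternatives. Leaving out each library moved the log2 ratio difference between 0.92 and 1.05 for Hnrnpa1 to Hnrnpa2b1 and between 0.55 and 0.79 for Hnrnpab to Hnrnpd, and the summed share difference, 0.111 percentage points, between 0.0879 and 0.153. The list of other hnRNP genes and levels per coding length were not run, since identifiers could not be matched. Depth was low for some leaders, and Hnrnpa1 had 32 leader counts over the resting libraries.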

Other observations

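Counts outside coding sequence and leaders were few for most of the 10 genes. Hnrnpc held the most intronic counts, with 24, 38 and 44 in activated replicates 2, 3 and 4, against 31, 27 and 32 in resting replicates. Pooled over a group, that was 5.88 per 100 CDS counts in activated and 9.47 in resting cells, while the other 9 genes had at most 1.78 in activated and 1.28 in resting cells. Intronic counts per 100 CDS counts over all genes were 6.94 to 10.3 in activated and 9.22 to 25.1 in resting libraries.

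In the 3′ UTR, Hnrnpk had 27 counts over the activated and 27 over the resting libraries. Hnrnpa1 had 8 over the activated and 17 over the resting libraries, or 0.288 and 2.07 per 100 CDS counts. Of the 17, 9 came from resting replicate 2, the library with the most 3′ UTR counts per 100 CDS counts over all genes (4.46), and without it the resting value was 1.31. For each of the other 8 genes the 3′ UTR held at most 0.804 counts per 100 CDS counts in activated and 0.445 in resting cells. These regions were not tested for the members.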
